A study of Homo sapiens with 12 samples.

Results

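The glycine tRNAs of the colorectal cancer line DLD1 were examined at the adenosines where N1-methyladenosine (m1A) was scored in a tRNA MeRIP-seq experiment. The members were chosen by their amino acid, as all glycine entries in the deposited list of m1A sites, and all 44 listed sites have a mismatched read in at least 1 IP library, so that the list was in effect selected on IP mismatches. The IP rate was above the dma.IP rate in at least 1 culture at 42 of the 44 sites, including all 4 glycine sites, so that low dma.IP rates may have been favoured too. This gave 4 of the 44 sites and 3 of the 29 tRNAs. They were adenosine 56 and adenosine 3 of tRNA-Gly-GCC-2-1 (A56 and A3), A3 of tRNA-Gly-CCC-1-1 and A14 of tRNA-Gly-CCC-2-2, with positions counted from 1 at the 5′ end of the mature tRNA. OE-WT cells overexpressed TRMT6 and TRMT61A from a lentiviral vector, and CTRL cells carried the empty vector. The design text of the series can also be read as separate TRMT6 and TRMT61A cultures, whereas the sample labels name the 2 genes together. Each condition had 2 cultures, labelled Rep1 and Rep2, and each culture gave 3 libraries. The dma.IP library is marked as treated with a demethylase, the IP library was enriched with an m1A antibody, and the Input library was not enriched, which made 12 libraries in all. No library of this assay measures the mRNA of TRMT6 or TRMT61A, so the overexpression was not checked here.

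Glycine tRNAs read the GGN codons. The GCC anticodon decodes GGC and GGU, and the CCC anticodon decodes GGG. TRMT61A is the catalytic subunit and TRMT6 the RNA-binding subunit of a cytosolic tRNA methyltransferase. Its target is adenosine 58 (A58), a base of the T loop, where m1A helps to hold the folded tRNA together. The methyl group lies on the base-pairing edge of adenine, so that reverse transcriptase stops or puts in a wrong base. The mismatch rate, which is the share of reads over an adenosine that carry another base, was therefore the measure of m1A. Whether the mismatches at A3 and A14, which are outside the positions this enzyme is known for, came from m1A was not tested.

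The sequences show which sites can be compared. Each is the mature tRNA as listed with the deposited sites, matched base for base to hg38, with the listed adenosines and the anticodon (positions 33 to 35) in capitals.
tRNA-Gly-GCC-2-1: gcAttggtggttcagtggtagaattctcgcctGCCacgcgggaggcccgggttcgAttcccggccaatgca
tRNA-Gly-CCC-1-1: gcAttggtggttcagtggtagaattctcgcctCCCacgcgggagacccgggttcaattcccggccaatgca
tRNA-Gly-CCC-2-2: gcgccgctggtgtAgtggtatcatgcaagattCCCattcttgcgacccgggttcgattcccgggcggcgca
All 3 tRNAs were 71 nt long, which places A58 of the conventional numbering at position 56. The 7-base T loop was ttcgAtt in GCC-2-1, ttcaAtt in CCC-1-1 and ttcgAtt in CCC-2-2, with A58 in capitals. A58 was thus present in all 3 tRNAs, but of these only that of GCC-2-1 was among the sites analysed, so the anticodons could not be compared at A58.

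GCC-2-1 and CCC-1-1 were close to identical. They differed at 3 of the 71 positions (95.8% identity), by G33C in the anticodon, G45A and G55A, with the base of GCC-2-1 first. Their first 32 bases were the same, so a read over A3 that ended before position 33 holds nothing that separates them. A3 is the third base of the acceptor stem and stands opposite a T (U in the RNA) at position 68. CCC-2-2 differed from GCC-2-1 at 24 positions (66.2% identity), and one of these, A3G, removes the adenosine at position 3. A14, a conserved base of the D loop, is present in all 3 tRNAs but was listed only for CCC-2-2. The sites analysed covered 2 of the 11 adenosines of GCC-2-1, 1 of the 13 of CCC-1-1 and 1 of the 10 of CCC-2-2.

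**Figure D1:**
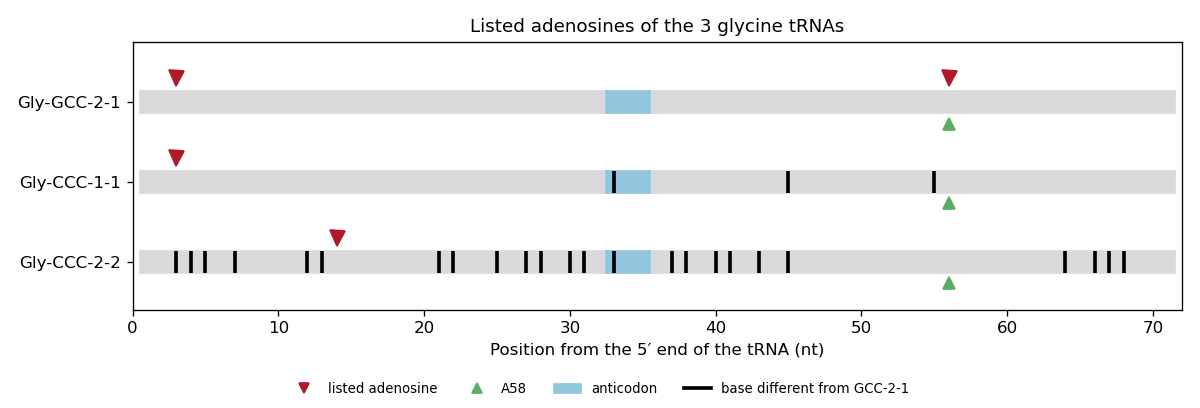
Positions along the 3 glycine tRNAs, in nucleotides from the 5′ end. Red triangles mark the listed adenosines, green triangles A58, blue boxes the anticodon and black lines the bases that differ from GCC-2-1, which number 3 in CCC-1-1 and 24 in CCC-2-2.

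The gene of tRNA-Gly-GCC-2-1 lies at chr1:161523847-161523917 on the minus strand of hg38, where GENCODE v44 has an exon of FCGR2A and an intron of the lncRNA ENSG00000273112, both on the plus strand. tRNA-Gly-CCC-1-1 lies at chr1:16545939-16546009 and tRNA-Gly-CCC-2-2 at chr16:636736-636806, both on the minus strand and neither within a GENCODE gene. Each entry stands for several identical gene copies, which in RefSeq number 6 for GCC-2-1, 2 for CCC-1-1 and 2 for CCC-2-2. Of the 30 glycine tRNA genes in RefSeq, 13 have the GCC, 8 the CCC and 9 the TCC anticodon. An adenosine stands at position 3 in 17 of the 30, namely in all 13 GCC and in 4 of the 8 CCC genes, and in none of the 9 TCC genes. The first 14 bases of GCC-2-1 are found in 10 of the 30 genes, which include its own 6 copies and the 2 of CCC-1-1.

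Depth set what could be compared. The glycine sites carried 21 reads in dma.IP, 25 in IP and 836 in Input, out of 524, 548 and 234265 reads summed over all listed sites. In these and other sums over sites, a read counts once at each listed site that it covers. Of the 16 values of a fraction (4 sites in 4 libraries), 10 in dma.IP and 8 in IP had no reads, whereas all 16 in Input had reads. The rates of the glycine sites were therefore measured mainly in Input. The glycine sites gave 4.01% of the summed reads in dma.IP, 4.56% in IP and 0.357% in Input. The sums hold listed sites only and count reads over several sites repeatedly, so this is no measure of enrichment. Intervals cover counting error only. The series design has each group cultured in duplicate, and p-values can measure no more than the spread between these cultures. Fisher's exact test on summed reads measures counting error and not that spread. Counting error also set the scale of some model tests, as given below for each site.

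A58 of GCC-2-1 was the best covered glycine site. In Input, its mismatch rate was 24.3% (46 of 189 reads) and 24.5% (38 of 155) in the OE-WT cultures, against 21.0% (25 of 119) and 22.6% (26 of 115) in the CTRL cultures. Both OE-WT cultures lay above both CTRL cultures. The rate averaged 24.4 ± 0.126% in OE-WT and 21.8 ± 1.13% in CTRL cells (SD, n = 2 each), and the summed rates differed by 2.62 points (Newcombe 95% interval -4.50 to 9.42). The fitted dispersion at A56 was 0.0447, under the floor of 1 set in the quasi-binomial model. Counting error, and not the spread between cultures, therefore set the scale of the test here. The quasi-binomial model gave an adjusted p of 0.829 for A56. It called 0 of the 23 sites tested (percent called 0), also 0 at an unadjusted p, whereas limma had 2 sites at an unadjusted p and 0 after adjustment, and Fisher's exact test on sums had 4 and 1, the last of another tRNA. Both OE-WT libraries lay above both CTRL libraries at 5 of these 23 sites (21.7%) and below them at 3 (13%).

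A14 of CCC-2-2 was mismatched less often. Its Input rate was 6.52% (3 of 46 reads) and 15% (3 of 20) in the OE-WT cultures, against 3.33% (2 of 60) and 3.13% (1 of 32) in the CTRL cultures. Both OE-WT cultures were higher, each on 3 mismatched reads. The mean was 10.8 ± 6.00% in OE-WT and 3.23 ± 0.147% in CTRL cells (SD, n = 2 each), and the summed rates of 9.09% and 3.26% differed by 5.83 points (Newcombe 95% interval -1.81 to 15.4). The fitted dispersion of 0.608 was again under the floor of 1, and the quasi-binomial model gave an adjusted p of 0.829. In limma on the logit of the rates the unadjusted p was 0.0470 and the adjusted p 0.356. Leaving out the second OE-WT culture brought the difference of the means to 3.29 points, and leaving out the first brought it to 11.8 points.

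**Figure D2:**
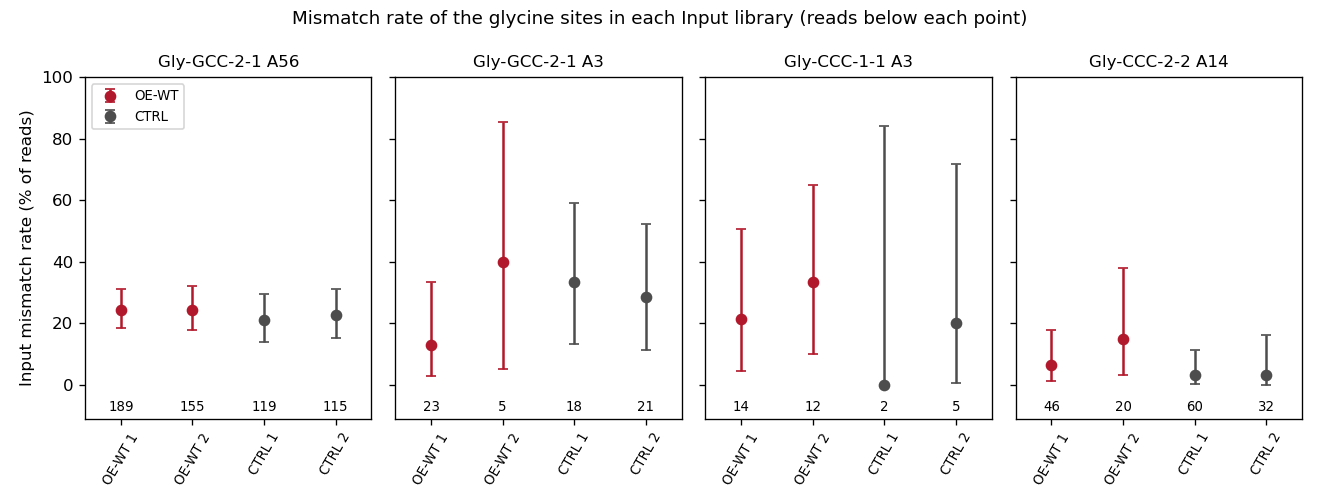
Mismatch rate (percent of reads) of each glycine site in the 2 OE-WT and the 2 CTRL Input libraries, with exact 95% Clopper-Pearson intervals and the number of reads under each point. A56 lies between 21.0% and 24.5% in the 4 libraries, A14 between 3.13% and 15%, and the A3 sites spread more widely on fewer reads.

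A3 had fewer reads at both tRNAs. For GCC-2-1 its Input rate was 13% (3 of 23 reads) and 40% (2 of 5) in OE-WT, against 33.3% (6 of 18) and 28.6% (6 of 21) in CTRL cultures. The conditions overlapped, and the summed rates of 17.9% in OE-WT and 30.8% in CTRL cells differed by -12.9 points (Newcombe 95% interval -31.5 to 8.62). For CCC-1-1 the rate was 21.4% (3 of 14) and 33.3% (4 of 12) in OE-WT, against 0% (0 of 2) and 20% (1 of 5) in CTRL cultures. The OE-WT cultures lay above the CTRL cultures, one of which had only 2 reads, and the interval of the summed difference of 12.6 points ran from -26.7 to 35.1. With the coverage minimum lowered to 1 read, both OE-WT libraries were above both CTRL libraries at 7 of 35 sites (20%), and 0 sites were called. Both A3 sites together, which does not depend on how reads were divided between the 2 tRNAs, had 12 mismatches in 54 OE-WT reads (22.2%) and 13 in 46 CTRL reads (28.3%). This difference of -6.04 points had an interval of -22.9 to 10.7, and the cultures overlapped.

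The division of the A3 reads between the 2 tRNAs differed between the cultures. In OE-WT, GCC-2-1 had 23 and 5 Input reads over A3 and CCC-1-1 had 14 and 12. In CTRL, GCC-2-1 had 18 and 21 and CCC-1-1 had 2 and 5. The share counted to CCC-1-1 was thus 37.8% and 70.6% in the OE-WT cultures, against 10% and 19.2% in the CTRL cultures, and the conditions did not overlap. Summed over cultures the share was 48.1% of 54 reads in OE-WT (95% interval 34.3 to 62.2%) and 15.2% of 46 in CTRL cells (6.34 to 28.9%). This split was chosen after its values were seen and was given no test. How the authors placed reads that match both tRNAs equally well is not given in the sources used here, and its part in these shares was not tested.

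**Figure D3:**
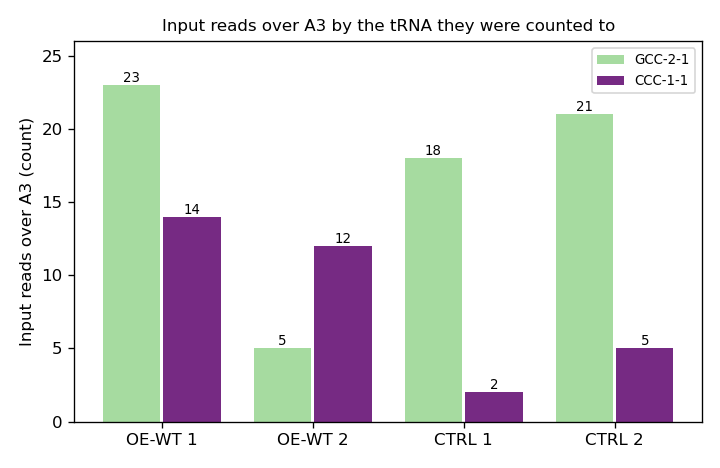
Input reads (count) over A3 in the 2 OE-WT and the 2 CTRL cultures, by the tRNA to which they were counted. CCC-1-1 has 14 and 12 reads in OE-WT against 2 and 5 in CTRL, and GCC-2-1 has 23 and 5 against 18 and 21.

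The anticodons were compared at the position both share in the list, A3. Reads over A3 that end before position 33 hold nothing that separates GCC-2-1 from CCC-1-1. For such reads the comparison cannot tell the anticodons apart, and their number is not known. Over all Input libraries, A3 was mismatched in 17 of 67 reads of GCC-2-1 (25.4%) and in 8 of 33 reads of CCC-1-1 (24.2%). The difference of 1.13 points had a Newcombe 95% interval of -17.9 to 17.4, wide enough for either tRNA to be well above the other. By culture, GCC-2-1 was higher than CCC-1-1 in 3 of 4 and lower in 1, by 10 ± 17.3 points on average (SD, n = 4), with p = 0.375 in an exact sign-flip permutation test (two-sided, adjusted p = 0.450 over 6 pairs of sites). With all sites of an anticodon summed, the Input rate was 23.6% at the GCC sites (152 of 645 reads) and 8.90% at the CCC sites (17 of 191). That contrast sets A56 and A3 against A3 and A14, so anticodon and position cannot be told apart in it.

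A58 was compared with the 5′ positions in the same way. Within GCC-2-1, Input mismatches stood at 23.4% at A56 (135 of 578 reads) and 25.4% at A3 (17 of 67), a difference of -2.02 points (Newcombe 95% interval -14.0 to 7.58). A56 was the lower site in 3 of 4 cultures (exact sign-flip permutation test, p = 0.375, adjusted p = 0.450). A56 of GCC-2-1 exceeded A14 of CCC-2-2 in 4 of 4 cultures, by 16.1 ± 4.48 points (SD), with the smallest difference at 9.52 and the largest at 19.5 points. The exact sign-flip permutation p of 0.13 for this pair is the smallest that 4 cultures allow. It was the only pair in which both sites had 20 reads in each library. A3 of GCC-2-1 also exceeded A14 in 4 of 4 cultures, by 21.7 ± 10.4 points (SD), with the same p of 0.13 (adjusted p = 0.375 over 6 pairs). The set of all 5′ sites had 34 mismatches in 258 Input reads (13.2%), of which A3 gave 25 in 100 (25.0%) and A14 9 in 158 (5.70%).

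In Input, A58 of GCC-2-1 stood high among the listed sites. It ranked 2 of the 23 tested sites by the mean rate over the 4 libraries (23.1%), after A9 of tRNA-Asp-GTC-2-5 at 52.9%, and A14 of CCC-2-2 ranked 8 at 7.0%. The median of the 23 tested sites was 5.53%. Of the 8 A58 sites in the list, 5 had 20 reads in every Input library. The lowest GCC-2-1 library, at 21.0%, was above every library of the other 4, whose means were 13.3% in the initiator tRNA-iMet-CAT-1-1, 6.80% in tRNA-Ala-AGC-2-2, 5.53% in tRNA-Glu-TTC-4-1 and 2.63% in tRNA-Asp-GTC-3-1. These levels are a description of the sites in the list, and the other 3 A58 sites had under 20 reads in a library. By the mean absolute difference over the 4 Input libraries, the tested sites closest to A56 were A37 of tRNA-Glu-TTC-2-1 (6.97 points away) and A14 of tRNA-Asp-GTC-2-5 (7.36 points). Those closest to A14 of CCC-2-2 were A57 of tRNA-Glu-TTC-4-1 (2.91 points) and A37 of tRNA-Asp-GTC-2-5 (3.95 points).

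**Figure D4:**
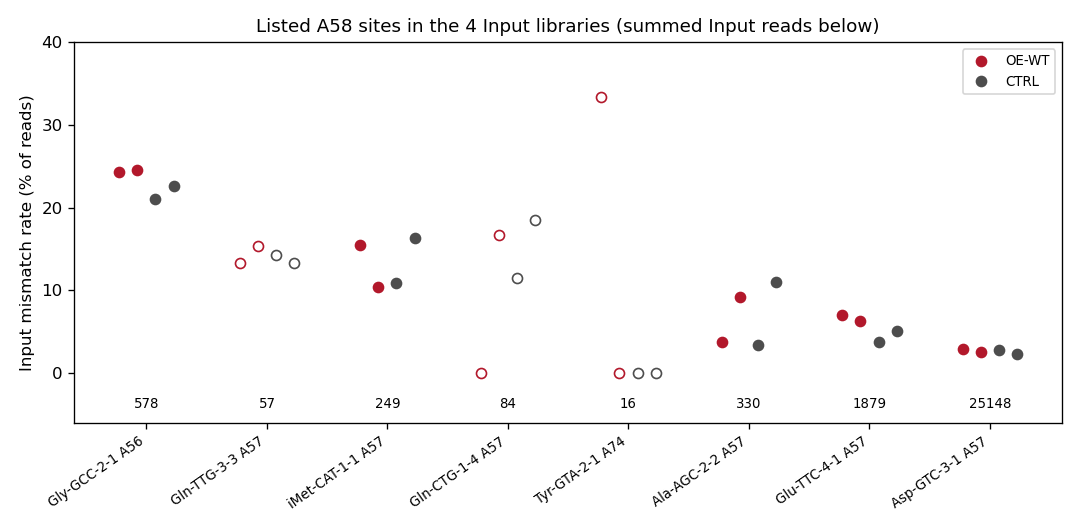
Input mismatch rate (percent of reads) of the 8 listed A58 sites in the 2 OE-WT (red) and 2 CTRL (grey) libraries, in order of the mean, with summed reads below. Filled points are sites with 20 reads in every library, and among these the points of Gly-GCC-2-1, from 21.0% to 24.5%, lie above all others.

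The demethylase-treated and antibody-enriched libraries were thin at these sites. Each of the 4 glycine sites had exactly 1 mismatched IP read, which puts them among the 35 of 44 sites with 1, so the IP and dma.IP rates describe the listing and were not tested against each other or Input. At A56 of GCC-2-1, dma.IP held no mismatch in 0 and 5 OE-WT reads and in 6 and 6 CTRL reads. That is 0 of 17, which allows a rate of up to 17.6% by the 3-count limit (exact 95% upper bound 19.5%, but 45.9 to 52.2% in the single cultures with reads), against 1 of 3 IP reads and 135 of 578 Input reads (23.4%). The single IP mismatch lay in the second CTRL culture, and neither OE-WT culture had an IP read there.

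A3 of GCC-2-1 had 0 mismatches in 2 dma.IP reads. In IP it had 0 of 0 and 0 of 2 in OE-WT, against 1 of 8 and 0 of 3 in CTRL cultures, in sum 1 of 13 (7.69%), beside 25.4% in Input. A3 of CCC-1-1 had 1 mismatch in 2 dma.IP reads, both of the second CTRL culture, and this was the only glycine mismatch in dma.IP. Its IP reads were 0 of 1 and 0 of 0 in OE-WT, against 1 of 4 and 0 of 2 in CTRL cultures. A14 of CCC-2-2 had no dma.IP read, and its IP reads were 0 of 0 and 1 of 2 in OE-WT and none in CTRL cultures. Fisher's exact test was run at 2 of the 4 glycine sites in IP, A3 of GCC-2-1 and A3 of CCC-1-1, with an adjusted p of 1 for both. Each had a single mismatched IP read, so neither could pass the threshold at this depth, wherever that read fell. The test therefore decides nothing about these sites. In all, 0 of 31 sites were called in IP (percent called 0; 0 at an unadjusted p, and limma called 0). In dma.IP none of the 4 could be tested, and 0 of 6 sites of other tRNAs were called by Fisher's exact test (percent called 0; 0 at an unadjusted p), against 1 of 6 by limma. By anticodon, the GCC sites had 0 of 19 mismatched reads in dma.IP, 2 of 16 in IP and 152 of 645 in Input, and the CCC sites had 1 of 2, 2 of 9 and 17 of 191. No order of the fractions could be read at this depth.

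Where the reads fell along GCC-2-1 differed between the fractions. In dma.IP, 2 reads covered A3 and 17 covered A56, in IP 13 covered A3 and 3 covered A56, and in Input 67 covered A3 and 578 covered A56. A3 thus made up 11% of the summed coverage of the 2 positions in dma.IP, 81.3% in IP and 10.4% in Input. A read that covers both positions counts at each, so these are ratios of coverage and are given no interval. Of the 13 IP reads over A3, 8 came from the first CTRL culture, which had none over A56, and 3 from the second, which had 3 over A56. The OE-WT cultures gave 2 IP reads over A3 and 0 over A56, and without the first CTRL culture A3 had 5 and A56 had 3 IP reads. By culture the Input share at A3 was 10.8% and 3.13% in OE-WT, against 13.1% and 15.4% in CTRL cells, without overlap. It rests on 23 and 5 reads over A3 in OE-WT and 18 and 21 in CTRL cells. The A3 counts depend on how reads were divided between GCC-2-1 and CCC-1-1, as given above. Both A3 sites together had 37 and 17 Input reads in OE-WT, against 20 and 26 in CTRL cultures. Whether the shares would stay apart under another division was not tested.

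**Figure D5:**
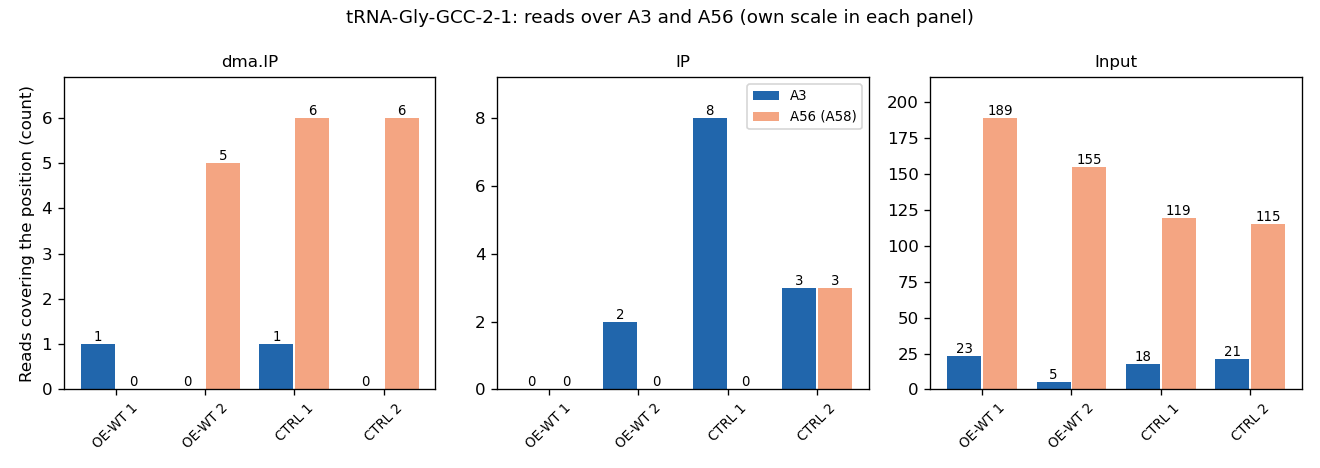
Reads (count) over A3 and A56 of tRNA-Gly-GCC-2-1 in each culture, OE-WT before CTRL, in the dma.IP, IP and Input libraries, each panel on its own scale. Reads over A56 outnumber those over A3 in every Input library, and in IP A3 has 13 reads in all against 3 at A56.

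The same comparison in other tRNAs with a 5′ and a more 3′ site gave both patterns. In tRNA-Glu-TTC-2-1, A5 and A37 had 0 and 2 reads in dma.IP, 47 and 2 in IP and 904 and 5658 in Input. Of its 47 IP reads over A5, 41 came from the second CTRL culture, and without that culture A5 and A37 had 6 and 2 IP reads. In tRNA-Asp-GTC-2-5, A9 and A37 had 5 and 57 reads in dma.IP, 1 and 24 in IP and 9127 and 49004 in Input. More IP reads over the 5′ site than over the 3′ site were thus found in one of these tRNAs, mostly in 1 culture, and fewer in the other. The Input share at the 5′ site of tRNA-Glu-TTC-2-1 was 17.1% and 13.3% in OE-WT, against 11% and 12.2% in CTRL cultures. These shares also did not overlap but ran the opposite way to GCC-2-1, whose share depends on how the A3 reads were divided. In tRNA-Asp-GTC-2-5 the Input share at the 5′ site was 17.7% and 14.4% in OE-WT, against 16.2% and 14.1% in CTRL cultures, with overlap. None of these shares was tested.

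The abundance of the glycine tRNAs was taken as the Input reads at the most covered listed site. GCC-2-1 had 189 and 155 reads in OE-WT, against 119 and 115 in CTRL cultures, and its log2 ratio of OE-WT over CTRL was 0.24 ± 0.28 (SE) after scaling for depth. In edgeR's quasi-likelihood test the adjusted p was 0.980, and without the second CTRL culture the log2 ratio was -0.059. CCC-1-1 had 14 and 12 reads in OE-WT, against 2 and 5 in CTRL cultures, a log2 ratio of 1.59 ± 0.84 (SE; edgeR, adjusted p = 0.264). These are the A3 reads whose division from GCC-2-1 is given above. CCC-2-2 had 46 and 20 reads in OE-WT, against 60 and 32 in CTRL cultures, a log2 ratio of -0.84 ± 0.44 (SE; edgeR, adjusted p = 0.264), and its ratio without the first CTRL culture was 0.082. Over all tRNAs, 0 of 20 were called (percent called 0; 2 at an unadjusted p in edgeR, neither of them a glycine tRNA, and 0 adjusted and 1 unadjusted in DESeq2). The tRNA at an unadjusted p in DESeq2 was CCC-1-1, with a log2 ratio of 1.74 (DESeq2, unadjusted p = 0.0288, adjusted p = 0.486). In these bulk libraries less RNA per cell and fewer covering reads from the library preparation cannot be told apart.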

How the data were processed

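The authors enriched small RNA, removed the amino acids, built small RNA libraries and sequenced them on a NovaSeq. Per the methods and the submitters' processing notes, reads were trimmed with Cutadapt 1.9.3, aligned with Bowtie2 to a tRNA library with CCA added and isoforms of equal score merged, and handled with SAMtools and edgeR on GRCh38 (hg38). How mismatches were called, how equal matches were placed and where the demethylase acted are not given in the sources used here.

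The authors deposited, per site and library, a count of reads and a count of mismatched reads, not normalized, and a mismatch rate as a fraction, which equals the 2 counts divided. The authors also deposited, per culture, a difference and a ratio of IP and dma.IP rates, which were not used. Statements cover the 44 sites analysed.

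Rates were recomputed from the counts. Input sites covered by at least 20 reads in all 4 libraries and holding a mismatch were fitted with a quasi-binomial logistic model (dispersion of at least 1), IP and dma.IP were compared by two-sided Fisher's exact tests on summed reads, pairs of sites by exact sign flips over the 4 cultures, and tRNA reads with edgeR 4.0.16 after its filter on low counts and TMM scaling. Benjamini-Hochberg adjustment ran over all features tested, at a threshold of 0.05. For the sign flips it ran over pairs of glycine sites only, which were 1 pair at 20 reads and 6 pairs at 1 read in each library. limma 3.58.1 (logit, offset 0.01), DESeq2 1.42.0, other coverage minimums, left-out cultures and a replicate block were alternatives. The edgeR standard error was taken as the log2 ratio over the root of F. Intervals are Clopper-Pearson or Newcombe at 95%. R 4.3.3, Python 3.11.15, SciPy 1.17.1 and matplotlib 3.10.9 were used. The quasi-binomial model and edgeR were also run on simulated counts. The simulated mismatches held counting error only, whereas fitted dispersions in Input reached 4.92. For the mismatch model these runs therefore do not cover a spread between cultures. Gene copies were taken from RefSeq and overlapping genes from GENCODE.

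All glycine sites are named, with the A58 sites of other tRNAs by level and the 2 sites closest to each tested glycine site. Sites of tRNA-Glu-TTC-2-1 and tRNA-Asp-GTC-2-5 in the coverage comparison were chosen after their values were seen. The members and lists were chosen with earlier results of these data known.

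Summed over all listed sites, Input reads ranged from 33288 to 72519 per library, IP reads from 59 to 220 and dma.IP reads from 62 to 203. A read counts at each site that it covers.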

Additional observations from a re-analysis of the deposited data

How the results depend on the processing

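The 8 values of glycine sites and tRNAs were recomputed under 59 alternatives in all. Of these, 57 kept the direction and the side of the threshold, 2 turned the direction and 0 crossed the threshold. Part of this was fixed beforehand. The 8 alternatives for A56 against A14 were sign flips over at most 4 cultures, whose smallest possible p lies above the threshold. A56 was higher in every culture, so leaving cultures out could not turn that difference. At each A3 site in IP the only mismatched read lay in a CTRL culture, so the direction could not turn. Fisher's exact test could not cross the threshold there. These outcomes are no sign of stability. The 2 turns were in Input reads per tRNA (log2 OE-WT over CTRL, edgeR): leaving out 1 culture at a time, GCC-2-1 ranged from -0.059 to 0.62 and CCC-2-2 from -1.50 to 0.082, the outermost turned values being those without the second and the first CTRL culture. The cause was not tested. The number of Input sites called was 0, but 1 with dispersions shared over sites and 1 when Fisher's exact test was run on the sums, and the number of dma.IP sites called was 0, but 1 with limma. None of these was a glycine site. The cultures share only a number across conditions: same-numbered Input libraries deviated together with r = 0.131 over 23 sites. With the replicate number as a block, 0 of 23 sites and 0 of 20 tRNAs were called, the adjusted p was 0.933 for A56 and for A14, and no glycine call changed. With 2 cultures per condition and at most 8 glycine reads per IP site and library and 6 in dma.IP, a difference between conditions was not detectable in these fractions at this depth.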
